A study of Mus musculus with 4 samples.

Results

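The 48 genes described here encode subunits, assembly chaperones, activators and an inhibitor of the mouse proteasome. They were taken as every protein-coding gene whose symbol starts with Psma, Psmb, Psmc, Psmd, Psme, Psmf or Psmg followed by a digit, without the inducible catalytic subunits Psmb8 and Psmb9. The table listed 53379 gene identifiers, and 18422 of these, including all 48, had enough counts to be tested. One of the 48, Psmc3ip, is included by its name alone: it encodes a partner of the meiotic recombinases and is no part of the proteasome.

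RNA was sequenced from tumour-associated macrophages of C57BL/6J mice that carried MC38 tumours, a mouse colon carcinoma line, 21 days after the tumours were implanted. A high-fat diet was given to 2 of the mice and a control diet to 2, with no other treatment named in the labels; each library is from 1 named mouse, and no pooling is mentioned. All cells were sorted as positive for CD45, CD11b and F4/80, and polyA RNA was made into stranded libraries. The comparison addresses which macrophage transcripts differ with what the host was fed.

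The proteasome degrades proteins marked with ubiquitin. Its barrel-shaped core is built of outer rings of alpha subunits, which gate the entry, and inner rings of beta subunits, some of which cut peptide bonds. A regulatory cap binds the ubiquitin chain, removes it and threads the substrate into the core with a ring of ATPases. In macrophages and other cells exposed to interferon-gamma, inducible beta subunits replace the constitutive catalytic ones to form the immunoproteasome, which feeds peptides into antigen presentation.

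Libraries held 36898146 and 37147582 counts in the high-fat-diet mice, against 34148682 and 37159552 counts in the control-diet mice. The sort markers Ptprc, Itgam and Adgre1, which encode CD45, CD11b and F4/80, had adjusted p-values of 0.323, 0.960 and 0.823, and 0 of 11 macrophage markers were called by edgeR, with 1 at an unadjusted p below 0.05 and 0 by DESeq2. Markers of other cells differed: edgeR called 6 of 9 neutrophil and 2 of 9 dendritic cell markers lower and 5 of 8 fibroblast markers higher. Of all tested genes, it called 7.91% lower and 2.61% higher. Among the neutrophil and dendritic cell markers called lower, Ly6g, Ngp, Retnlg and Cd209a had fewer than 10 counts in each high-fat-diet library. These genes were tested on the strength of their control-diet counts alone. The neutrophil markers summed to 191 and 169 CPM, counts relative to the scaled library size, in the high-fat-diet libraries, against 383 and 190 CPM in the control-diet libraries. Mmp9 and Csf3r, neither of them called, held most of these sums in every library. Mmp9 had 104 and 81.5 CPM in the high-fat-diet libraries, against 124 and 73.5 CPM in the control-diet libraries. Csf3r had 80.8 and 83.0 CPM, against 138 and 71.6 CPM. Ly6g was at 0 in both high-fat-diet mice. The dendritic cell markers summed to 25.1 and 30.9 CPM in the high-fat-diet libraries, against 103 and 60.2 CPM in the control-diet libraries. The fibroblast markers summed to 1999 and 1978 CPM in the high-fat-diet libraries, against 998 and 748 CPM in the control-diet libraries. Col3a1, which was called, held 1690 and 1540 CPM of these sums in the high-fat-diet libraries, against 890 and 674 CPM. The part of these other cells in the levels of proteasome genes was not tested.

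In the abundant transcripts of the proteasome no difference between the diets was detected. With edgeR and an adjusted p below 0.05, 0 of the 48 genes were called higher on the high-fat diet, where 2.61% of all tested genes were, and 1 gene, Psmb11, was lower, where 7.91% of all tested genes were. Psmb11 held few counts and passed the low-count filter through its control-diet libraries alone. DESeq2 gave the same counts, 0 higher and 1 lower. At an unadjusted p below 0.05, edgeR placed 1 gene higher, Psmc3ip, and 1 lower, Psmb11. The log2 fold change, high-fat diet over control diet, was positive in 23 of the 48 genes and negative in 25, with a median of -0.03 beside 0.005 over all tested genes. The 2 libraries of one diet lay wholly on one side of the other pair in 24 of the 48 genes, beside 63.8% of all tested genes. Among these 24, the high-fat-diet libraries lay above the control-diet libraries in 8 and below them in 16, where 32.2% and 31.6% of all tested genes did so. In bulk RNA of sorted cells, fewer cells of a type and less RNA per cell cannot be told apart.

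**Figure D1:**
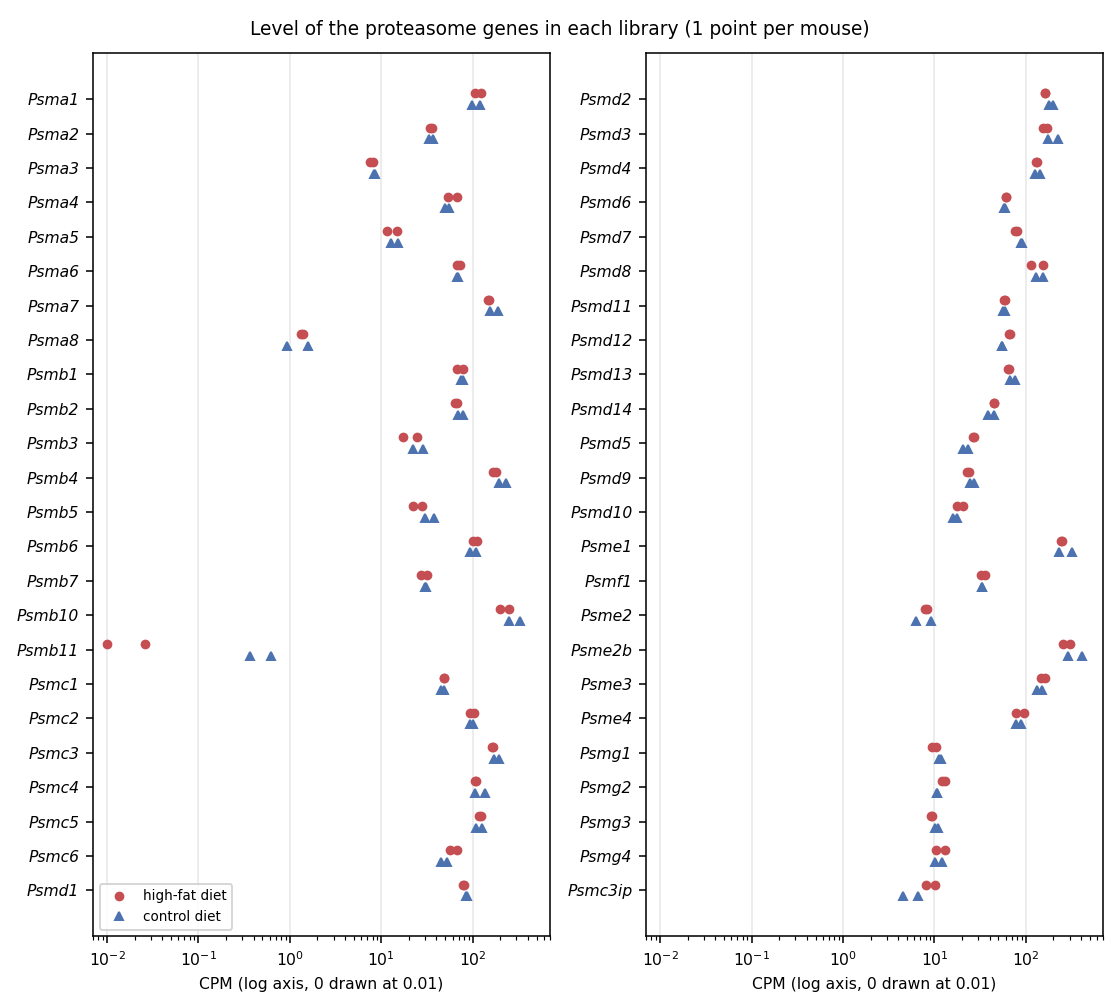
Level of each of the 48 genes in each library, in CPM on a log axis, with high-fat-diet mice as circles and control-diet mice as triangles; a count of 0 is drawn at 0.01. The 4 libraries lie close together for almost every gene, and Psmb11, at the far left, is the gene whose diets are far apart.

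The differences were small for abundant genes. The 44 genes whose average log2 CPM was 3 or more all had a log2 fold change within 0.5 of 0. Of the 10312 tested genes with that minimum, 74.6% did so. Those 10312 genes share the minimum only and were not matched to the 44 by level. The median absolute log2 fold change of the 44 genes was 0.14, beside 0.27 over the 10312 genes. The SD of the log2 fold changes was 0.18, beside 0.57. All 44 intervals at 95% lay within 1 log2 unit of 0. The lowest bound was -0.90 for Psmb5, a level 1.86-fold lower, and the highest was 0.73 for Psmc6, a level 1.66-fold higher. Changes larger than these were outside the intervals of all 44 genes.

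The log2 ratios between mice of one diet also scattered less among the 44 genes than among the 10312 genes, which were not matched by level. The SD of the log2 ratio of high-fat-diet mouse 1 to mouse 2 over the 44 genes was 0.193, beside 0.292 over the 10312 genes, and that of control-diet mouse 1 to mouse 2 was 0.190, beside 0.428. These SDs measure scatter among genes and leave out a shift that the genes share. The median log2 ratio of mouse 1 to mouse 2 over the 44 genes was 0.0155 on the high-fat diet and 0.1455 on the control diet. Over the 10312 genes it was 0.0138 and 0.0228. Control-diet mouse 1 was the highest of the 4 libraries in 22 of the 44 genes, and in 32.7% of the 10312 genes. As a whole, the 48 genes held 0.384 and 0.380% of the counts in the high-fat-diet libraries, against 0.411 and 0.375% in the control-diet libraries. The means were 0.382 ± 0.00238% and 0.393 ± 0.0258% (SD, n = 2 each), with an exact two-sided permutation p of 1, where 2 mice against 2 cannot go below 0.333. Without control-diet mouse 1 the difference of the shares was 0.00698 percentage points, against -0.0112 with it.

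**Figure D2:**
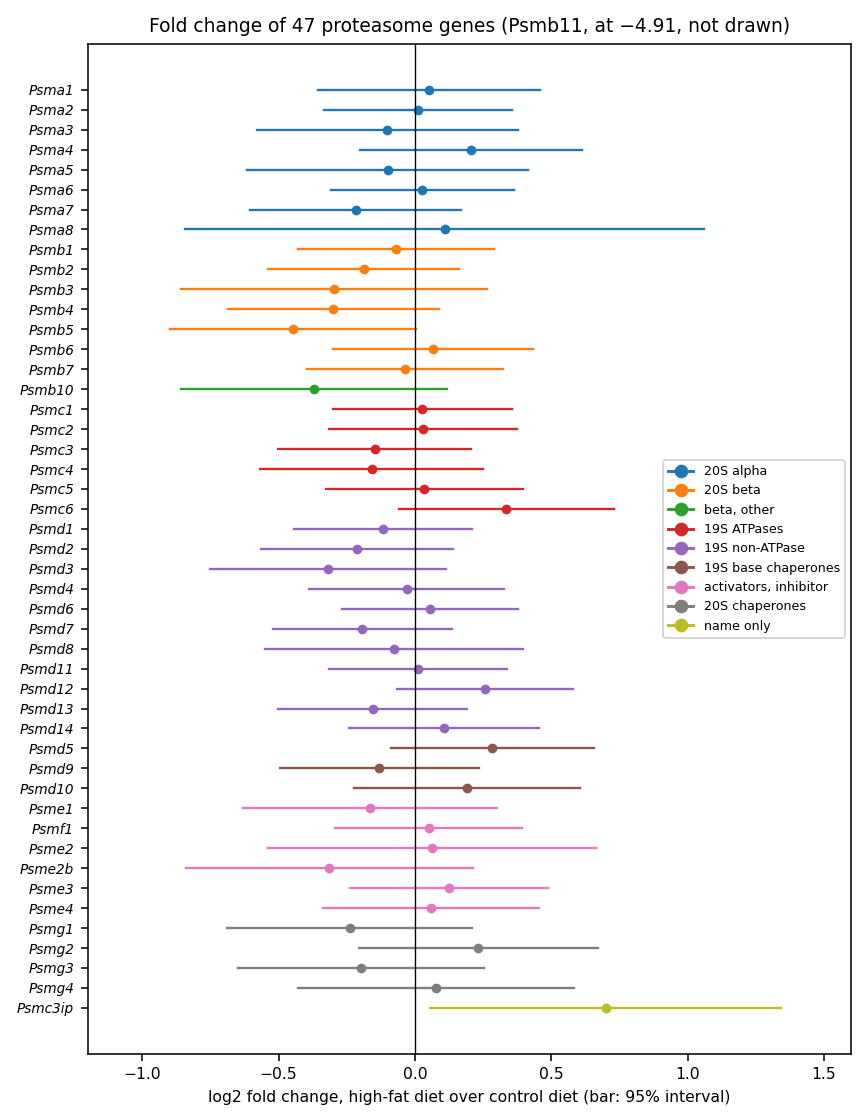
Log2 fold change, high-fat diet over control diet, of 47 of the genes by role, with 95% intervals from the edgeR fit. Every interval except that of Psmc3ip includes 0, and the points run from -0.45 for Psmb5 to 0.34 for Psmc6 besides Psmc3ip at 0.70.

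The alpha ring of the core is formed by Psma1 to Psma7, which bind the regulatory caps and close the gate of the core, and Psma8 is a form made mainly in testis. In these 8 genes the log2 fold change ran from -0.22 to 0.21, with a median of 0.02, and 0 were called. Psma7 had 146 and 150 CPM in the high-fat-diet libraries, against 189 and 155 CPM in the control-diet libraries (log2 fold change -0.22, SE 0.16, adjusted p = 0.392). Both high-fat-diet libraries lay below both control-diet libraries, and the gap to control-diet mouse 2 was small. Psma4 had 67.1 and 53.2 CPM in the high-fat-diet libraries, against 54.8 and 49.5 CPM in the control-diet libraries (log2 fold change 0.21, SE 0.17, adjusted p = 0.437). Here the diets overlapped, because high-fat-diet mouse 2 lay between the control-diet mice. Psma3 had 8.14 and 7.51 CPM in the high-fat-diet libraries, against 8.26 and 8.52 CPM in the control-diet libraries (log2 fold change -0.10, SE 0.20, adjusted p = 0.759). The 4 values of Psma3 lie within a narrow band. Psma8 was near the floor, with 1.39 and 1.33 CPM in the high-fat-diet libraries, against 0.925 and 1.59 CPM in the control-diet libraries, and the diets overlapped.

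Subunits of one ring are built into the particle in equal numbers, yet their counts per transcript length were far apart. Among Psma1 to Psma7, Psma7 had the highest mean level, 162 CPM per kb in the high-fat-diet and 188 CPM per kb in the control-diet libraries, and Psma3 the lowest, 2.75 and 2.95 CPM per kb. The ratio of these levels was 58.9 in the high-fat-diet and 63.9 in the control-diet libraries. It depends on the annotated lengths used, 914 bases for Psma7 and 2846 bases for Psma3. Without division by length, mean levels were 148 and 172 CPM for Psma7 in the high-fat-diet and control-diet libraries. Those of Psma3 were 7.83 and 8.39 CPM. Most counts of the Psma3 sequence were listed at a processed pseudogene, an intronless genomic copy made from a spliced transcript. Gm13835, such a copy of Psma3, held 4284 and 4122 counts in the high-fat-diet libraries, against 2821 and 3805 counts in the control-diet libraries, whereas Psma3 itself held 305 and 288 counts, against 268 and 317. The copy therefore held many times the counts of the gene in each of the 4 libraries.

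Over the part that aligns, the spliced sequences of this pair are the same. The transcripts of Psma3 and Gm13835 were aligned over 665 bases and differed at 0 of them, and 9 of the 10 exon junctions of Psma3 fall inside the alignment. The stretch below is coding sequence across the junction of exons 5 and 6 of Psma3, from GENCODE mouse release 21 on GRCm38, 5′ to 3′; the capitals mark 5 bases on each side of the junction. In the genome an intron splits these bases in Psma3 (chr12:70984716-70986892, plus strand), and they are continuous in Gm13835 (chr6:31142313-31142372, minus strand).
Psma3: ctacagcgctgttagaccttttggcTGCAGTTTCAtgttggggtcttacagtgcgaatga
Gm13835: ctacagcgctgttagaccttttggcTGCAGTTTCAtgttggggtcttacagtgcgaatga

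The constitutive beta ring holds the catalytic subunits Psmb5, which cuts after hydrophobic residues, Psmb6, which cuts after acidic residues, and Psmb7, which cuts after basic residues, beside the structural subunits Psmb1 to Psmb4. Of these 7 genes, 6 had a negative and 1 a positive log2 fold change, with a median of -0.19, and 0 were called. Psmb5 had the most negative value, with 22.4 and 27.5 CPM in the high-fat-diet libraries, against 37.8 and 30.2 CPM in the control-diet libraries (log2 fold change -0.45, SE 0.19, adjusted p = 0.163). Both high-fat-diet mice lay below both control-diet mice, and the difference did not pass the threshold. Psmb4 had 168 and 178 CPM in the high-fat-diet libraries, against 232 and 193 CPM in the control-diet libraries (log2 fold change -0.30, SE 0.16, adjusted p = 0.250). Psmb2 had 63.4 and 66.8 CPM in the high-fat-diet libraries, against 78.9 and 69.4 CPM in the control-diet libraries (log2 fold change -0.19, SE 0.14, adjusted p = 0.410). In both genes the diets did not overlap, and control-diet mouse 1 was the highest library. Psmb3 had 17 and 24.4 CPM in the high-fat-diet libraries, against 28.7 and 22.1 CPM in the control-diet libraries (log2 fold change -0.30, SE 0.23, adjusted p = 0.420), and overlapped. The catalytic subunits Psmb6 and Psmb7 overlapped too, with log2 fold changes of 0.07 and -0.04. Psmb6 had 100 and 110 CPM in the high-fat-diet libraries, against 107 and 93.1 CPM in the control-diet libraries, and Psmb7 had 27.4 and 31.4 CPM, against 29.7 and 30.6 CPM.

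Psmb5, like Psma3, has a processed copy that held more counts than the gene in every library. Gm3375 held 1520 and 1510 counts in the high-fat-diet libraries, against 1580 and 1597 counts in the control-diet libraries, and Psmb5 held 837 and 1055 counts, against 1226 and 1122. The counts of the gene were lower in both high-fat-diet mice. The raw counts of the copy lay closer together, but they are not scaled for depth, which was lowest in control-diet mouse 1. With the copies' counts added, Psmb5 had 62.9 and 66.9 CPM in the high-fat-diet libraries, against 86.5 and 73.1 CPM in the control-diet libraries (log2 fold change -0.30, SE 0.15, adjusted p = 0.230). The aligned transcripts differ at 8 of 795 bases, and both junctions of Psmb5 lie inside the alignment. The stretch across the junction of exons 2 and 3 is identical, with capitals marking 5 bases on each side of the junction (Psmb5, chr14:54614452-54616544, minus strand; Gm3375, chr7:3181569-3181628, plus strand; GRCm38).
Psmb5: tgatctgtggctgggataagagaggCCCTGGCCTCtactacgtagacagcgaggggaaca
Gm3375: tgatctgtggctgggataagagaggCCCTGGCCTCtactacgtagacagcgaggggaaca

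The genes of the immunoproteasome and its activator did not pass the test either. Psmb10, the inducible counterpart of Psmb7, had 246 and 196 CPM in the high-fat-diet libraries, against 324 and 248 CPM in the control-diet libraries (log2 fold change -0.37, SE 0.20, adjusted p = 0.256). High-fat-diet mouse 1 and control-diet mouse 2 were almost level, so the diets only just failed to overlap. Psmb8, the counterpart of Psmb5, had 293 and 266 CPM in the high-fat-diet libraries, against 348 and 271 CPM in the control-diet libraries (log2 fold change -0.15, SE 0.18, adjusted p = 0.605). Psmb9, the counterpart of Psmb6, had 162 and 140 CPM in the high-fat-diet libraries, against 158 and 138 CPM in the control-diet libraries (log2 fold change 0.02, SE 0.16, adjusted p = 0.939). Both overlapped. Psme1 and Psme2 encode the alpha and beta chains of the activator PA28, which interferon-gamma also induces. Psme1 had 249 and 243 CPM in the high-fat-diet libraries, against 320 and 232 CPM in the control-diet libraries (log2 fold change -0.16, SE 0.19, adjusted p = 0.596). Of these interferon-inducible genes, with Psme2 and Psme2b counted as well, 4 of 6 had a negative log2 fold change, 0 were called, and 5 of 6 were highest in control-diet mouse 1.

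The balance of inducible to constitutive catalytic subunits was taken as a ratio of counts per transcript length within each library. Psmb8 stood at 7.24 and 5.33 times Psmb5 in the high-fat-diet libraries, against 5.09 and 4.97 times in the control-diet libraries (exact two-sided permutation p = 0.333, the smallest possible). The diets did not overlap, yet high-fat-diet mouse 2 was close to the control-diet mice. With the counts of the Psmb5 copies added, the ratio was 2.57 and 2.19 in the high-fat-diet libraries, against 2.22 and 2.05 in the control-diet libraries (exact permutation p = 0.667), and the diets overlapped. Psmb9 stood at 0.955 and 0.749 times Psmb6 in the high-fat-diet libraries, against 0.870 and 0.876 times in the control-diet libraries (exact permutation p = 1). Psmb10 stood at 7.94 and 5.53 times Psmb7 in the high-fat-diet libraries, against 9.63 and 7.17 times in the control-diet libraries (exact permutation p = 0.667). None of the 3 ratios could reach a p below 0.333 with these mice, and Psmb9 and Psmb10 overlapped between the diets.

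The gene with the largest share of the counts of gene plus copies on its copies was Psme2, the other chain of PA28. Psme2b, an intronless protein-coding gene on chromosome 11, is nearly identical to Psme2 and fits the naming rule itself. Psme2b had 307 and 253 CPM in the high-fat-diet libraries, against 408 and 287 CPM in the control-diet libraries (log2 fold change -0.31, SE 0.22, adjusted p = 0.362). Psme2 had 8.22 and 7.87 CPM in the high-fat-diet libraries, against 9.12 and 6.29 CPM in the control-diet libraries (log2 fold change 0.06, SE 0.25, adjusted p = 0.884). Between 97 and 97.9% of the counts of the pair and its other copy lay outside Psme2 in each library. The aligned transcripts differ at 5 of 794 bases and all 10 junctions of Psme2 lie inside the alignment. The stretch across the junction of exons 8 and 9 holds some of the bases by which a read could be assigned, and here the capitals mark the bases that differ (Psme2, chr14:55588065-55588262, minus strand; Psme2b, chr11:48945592-48945651, minus strand; GRCm38).
Psme2: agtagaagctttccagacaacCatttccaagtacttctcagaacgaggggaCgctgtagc
Psme2b: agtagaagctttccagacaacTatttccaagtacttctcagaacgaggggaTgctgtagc

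Among the other activators, Psme3, which encodes the nuclear activator PA28-gamma, had 162 and 146 CPM in the high-fat-diet libraries, against 149 and 133 CPM in the control-diet libraries (log2 fold change 0.13, SE 0.15, adjusted p = 0.605). Psme4, the large activator PA200, had 94.6 and 78.4 CPM in the high-fat-diet libraries, against 77.5 and 88.6 CPM in the control-diet libraries. Psmf1, the inhibitor PI31, had 35.8 and 32.2 CPM in the high-fat-diet libraries, against 32.7 and 32.9 CPM in the control-diet libraries. The libraries of the diets separated in 0 of the 6 genes of this group, Psme1, Psme2 and Psme2b included, beside 63.8% of all tested genes.

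The base of the regulatory cap is driven by the ATPases Psmc1 to Psmc6, which unfold the substrate. Their log2 fold changes ran from -0.16 for Psmc4 to 0.34 for Psmc6, with a median of 0.03, and 0 of 6 were called. Psmc6 had 66.9 and 56.5 CPM in the high-fat-diet libraries, against 45.0 and 52.8 CPM in the control-diet libraries (log2 fold change 0.34, SE 0.16, adjusted p = 0.214). Psmc3 had 168 and 162 CPM in the high-fat-diet libraries, against 193 and 173 CPM in the control-diet libraries (log2 fold change -0.15, SE 0.15, adjusted p = 0.526). The diets separated in both genes, in opposite directions. Psmc4 had 105 and 110 CPM in the high-fat-diet libraries, against 135 and 105 CPM in the control-diet libraries (log2 fold change -0.16, SE 0.17, adjusted p = 0.559). Control-diet mouse 1 alone stood above the rest. Psmc1, Psmc2 and Psmc5 had log2 fold changes of 0.03 each and overlapped. Per transcript length, Psmc3 was the highest of the ring and Psmc6 the lowest, a ratio of 3.65 in the high-fat-diet and 5.10 in the control-diet libraries.

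Of the 11 other subunits of the cap, 7 had a negative and 4 a positive log2 fold change, with a median of -0.08, and 0 were called. The diets separated in 8 of the 11, with the high-fat-diet libraries above in 3 and below in 5, which is near the 63.8% of all tested genes in which they separate. Psmd3, a scaffold subunit of the lid, had 154 and 168 CPM in the high-fat-diet libraries, against 227 and 175 CPM in the control-diet libraries (log2 fold change -0.32, SE 0.18, adjusted p = 0.269). Psmd12, another lid subunit, went the other way, with 67.2 and 64.8 CPM in the high-fat-diet libraries, against 55.1 and 55.4 CPM in the control-diet libraries (log2 fold change 0.26, SE 0.13, adjusted p = 0.239). These are the extremes of the group, and in Psmd12 the mice of each diet were almost equal. Psmd2, which docks ubiquitin-like proteins, had 163 and 162 CPM in the high-fat-diet libraries, against 199 and 178 CPM in the control-diet libraries (log2 fold change -0.21, SE 0.15, adjusted p = 0.356). Psmd7, the partner of the deubiquitinase in the lid, had 80.5 and 76.3 CPM in the high-fat-diet libraries, against 91.2 and 88.0 CPM in the control-diet libraries (log2 fold change -0.19, SE 0.14, adjusted p = 0.372). The deubiquitinase itself, Psmd14, did not follow its partner: it had 45.3 and 44.5 CPM in the high-fat-diet libraries, against 38.9 and 44.4 CPM in the control-diet libraries (log2 fold change 0.11). Psmd4, a ubiquitin receptor, had 133 and 128 CPM in the high-fat-diet libraries, against 143 and 124 CPM in the control-diet libraries, and overlapped. Psmd1, Psmd6, Psmd8, Psmd11 and Psmd13 had log2 fold changes between -0.16 and 0.05.

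The assembly chaperones were measured at lower levels. Psmd5, Psmd9 and Psmd10, which act in the assembly of the base, lay with the diets apart in 3 of 3 genes, beside 63.8% of all tested genes. Of these, 0 of 3 were called. Psmd5 had 26.3 and 27.2 CPM in the high-fat-diet libraries, against 20.4 and 23.5 CPM in the control-diet libraries (log2 fold change 0.28, SE 0.15, adjusted p = 0.256). Psmd10, also known as gankyrin, had 20.7 and 17.6 CPM in the high-fat-diet libraries, against 17.4 and 16.1 CPM in the control-diet libraries (log2 fold change 0.19, SE 0.17, adjusted p = 0.482). Psmd9 lay on the other side, with 22.9 and 24 CPM in the high-fat-diet libraries, against 27.2 and 24.2 CPM in the control-diet libraries (log2 fold change -0.13, SE 0.15, adjusted p = 0.590). Psmg1 to Psmg4 build the core in pairs, Psmg1 with Psmg2 and Psmg3 with Psmg4. Psmg1 had 9.29 and 10.3 CPM in the high-fat-diet libraries, against 11.3 and 11.8 CPM in the control-diet libraries (log2 fold change -0.24, SE 0.19, adjusted p = 0.415). Its partner Psmg2 had 11.9 and 13.1 CPM in the high-fat-diet libraries, against 10.7 and 10.6 CPM in the control-diet libraries (log2 fold change 0.23, SE 0.18, adjusted p = 0.415). The partners thus lay on opposite sides, neither past the threshold. Psmg3 lay at -0.20 on the log2 scale (SE 0.19, adjusted p = 0.504) and Psmg4 at 0.08 (SE 0.21, adjusted p = 0.826).

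Near-identical copies were found for 15 of the 48 genes by aligning annotated transcripts, taking copies of at least 90% identity over at least 200 bases and 50% of their length. There were 27 such copies, of which 26 lay on another chromosome than their gene, 24 had at least 1 count, and 1, Psme2b, is protein-coding. In 6 genes more than 50% of the counts of gene plus copies lay on the copies in every library: Psme2, Psma3, Psma5, Psmb3, Psma4 and Psmb5. In Psma5 this share was 91.1 and 87.6% in the high-fat-diet libraries, against 89.0 and 89.2% in the control-diet libraries. In Psmc1 and Psmd2 between 43.1 and 48.5% of the counts lay on a copy. The pseudogene copies held 15.9 and 15.7% of the counts of the 48 genes and these copies together in the high-fat-diet libraries, against 14.6 and 15.6% in the control-diet libraries. All processed pseudogenes held 6.93 and 7.49% of all counts in the high-fat-diet libraries, against 6.63 and 6.83% in the control-diet libraries. How reads with several equally good places were counted is not given in the sources used here, and its part in these values was not tested.

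**Figure D3:**
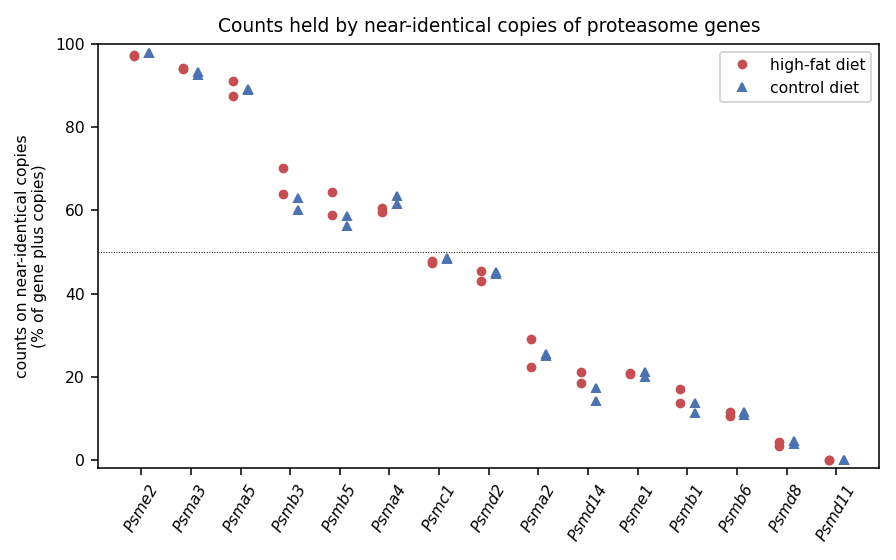
Share of the counts of each gene and its near-identical copies that lay on the copies, in percent, for the 15 genes with a copy, with 1 point per mouse. The share exceeded 50% (dotted line) in all 4 libraries for the 6 genes at the left, and mice of both diets lie at similar heights.

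Adding the counts of the copies to their gene left 0 of the 15 genes called, and it moved 6 log2 fold changes by more than 0.05, the largest by 0.369. The sign changed in Psma3 and Psme2. Psma3 with its copies had 135 and 129 CPM in the high-fat-diet libraries, against 111 and 127 CPM in the control-diet libraries (log2 fold change 0.16, SE 0.15, adjusted p = 0.500). Psme2 with its copies had 315 and 260 CPM in the high-fat-diet libraries, against 417 and 294 CPM in the control-diet libraries (log2 fold change -0.31, SE 0.22, adjusted p = 0.375). Psmb3 had a log2 fold change of -0.08 with copies, against -0.30 without. Within the alpha ring, the ratio of the highest to the lowest level per transcript length was 9.93 in the high-fat-diet and 11.7 in the control-diet libraries once copies were added. The lowest subunit was then Psma2, at 16.3 CPM per kb in the high-fat-diet and 16.1 CPM per kb in the control-diet libraries. That level rests on an annotated length of 2911 bases for Psma2.

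**Figure D4:**
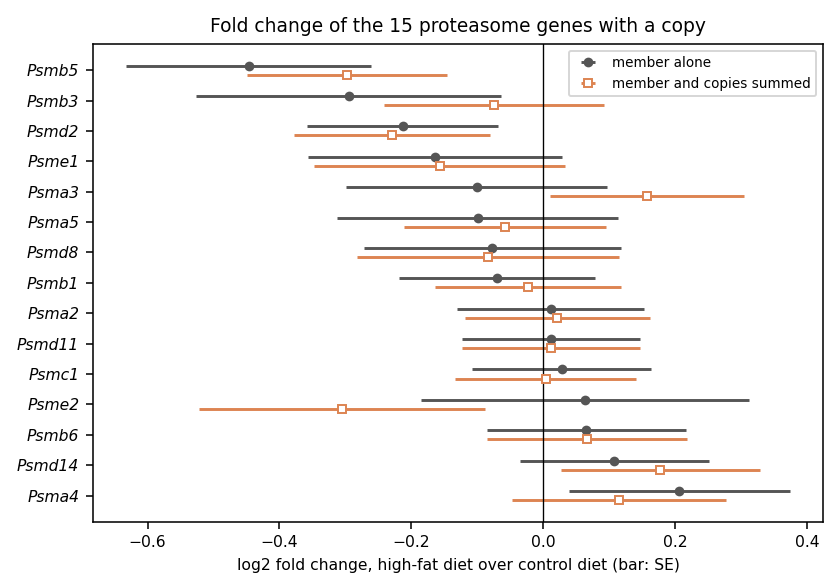
Log2 fold change, high-fat diet over control diet, with its SE, for the 15 genes with a copy, from the gene's own counts (filled) and from gene and copies summed (open). Psma3 and Psme2 lie on opposite sides of 0 in the 2 countings.

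Psmb11, the called gene, encodes a beta subunit that takes the place of Psmb5 in the epithelium of the thymus cortex. It had 0 and 1 counts in the high-fat-diet libraries, against 12 and 23 counts in the control-diet libraries (log2 fold change -4.91, SE 0.97, adjusted p = 0.0345). Summed over the mice of a diet, that is 1 count against 35, a level 36.3-fold lower in the high-fat-diet libraries with an exact conditional 95% interval of 6.11 to 1476, which covers counting error only. As Psmb11 was tested on the strength of its control-diet counts alone, these values describe it and are no independent support for a difference. It was no longer called without high-fat-diet mouse 1 (adjusted p = 0.236) or mouse 2 (adjusted p = 0.128). When control-diet mouse 2 was left out it had too few counts to be tested.

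Of 3 genes beside Psmb11, edgeR called Cdh24 lower and did not call Acin1 or Psmb5. Psmb11 lies at chr14:54621433-54629556 on the plus strand (GRCm38), 3.41 kb from Psmb5, and its end faces that of the cadherin gene Cdh24, which lies 1.674 kb away on the minus strand. Cdh24, named here after its values were seen, had 3.79 and 4.17 CPM in the high-fat-diet libraries, against 11.3 and 10.8 CPM in the control-diet libraries (log2 fold change -1.47, SE 0.21, adjusted p = 0.0173). Acin1, 0.796 kb beyond Cdh24 and likewise named after its values were seen, had 231 and 235 CPM in the high-fat-diet libraries, against 261 and 265 CPM in the control-diet libraries (log2 fold change -0.17, SE 0.14, adjusted p = 0.437). Psmb5, on the other side, was not called (adjusted p = 0.163). Markers of epithelial tumour cells moved the same way. All 6 had a negative log2 fold change, and edgeR called 5 of 6 lower, beside 7.91% of all tested genes. Of those called, Krt8, Krt18, Krt19 and Cldn7 had fewer than 10 counts in each high-fat-diet library. Like Psmb11, these genes were tested on the strength of their control-diet counts alone. The 6 markers summed to 39.5 and 46.0 CPM in the high-fat-diet libraries, against 156 and 112 CPM in the control-diet libraries. Of the 6, 0 were at 0 in all libraries. Cdh1, the gene not called, held 38.5 and 45.2 CPM of these sums in the high-fat-diet libraries, against 144 and 57.0 CPM in the control-diet libraries. The part of such cells, or of reads from Cdh24, in the counts of Psmb11 was not tested.

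Psmc3ip had 10.01 and 8.16 CPM in the high-fat-diet libraries, against 6.63 and 4.57 CPM in the control-diet libraries (log2 fold change 0.70, SE 0.27, adjusted p = 0.136). Both high-fat-diet mice lay above both control-diet mice. It was called higher when control-diet mouse 1 was left out (log2 fold change 0.99, SE 0.25, adjusted p = 0.0444). Markers of dividing cells moved the same way, with 6 of 8 called higher, beside 2.61% of all tested genes. Their summed levels were 1445 and 1270 CPM in the high-fat-diet libraries, against 587 and 1031 CPM in the control-diet libraries. Mki67, which was not called, held the largest part, 577 and 516 CPM in the high-fat-diet libraries, against 224 and 505 CPM. The part of dividing cells in the level of Psmc3ip was not tested.

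Genes that work with the proteasome were described from lists of partners, regulators, ubiquitin genes, p97 genes and peptide transport genes. Of 18 partners tested, 0 were called higher and 1 lower, beside 2.61 and 7.91% of all tested genes. Their median log2 fold change was -0.14. At an unadjusted p below 0.05, 2 were higher and 3 lower, and DESeq2 called 1 higher and 2 lower. The gene called by edgeR is Adrm1, a ubiquitin receptor of the cap. Adrm1 had 17.8 and 20.7 CPM in the high-fat-diet libraries, against 33.6 and 31.7 CPM in the control-diet libraries (log2 fold change -0.76, SE 0.16, adjusted p = 0.0368). Both high-fat-diet mice lay far below both control-diet mice. The call was lost without high-fat-diet mouse 1 (adjusted p = 0.256) or mouse 2 (adjusted p = 0.128). The end of Adrm1 lies 0.086 kb from that of Lama5 on the opposite strand, and how reads were assigned by strand is not given in the sources used here. Zfand2a, an arsenite-induced partner of the cap, had 46.4 and 76.0 CPM in the high-fat-diet libraries, against 113 and 114 CPM in the control-diet libraries (log2 fold change -0.89, SE 0.24, adjusted p = 0.0665).

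Among 15 regulators of proteasome genes, 0 were called higher and 4 lower, with a median log2 fold change of -0.30, beside 2.61 and 7.91% of all tested genes. At an unadjusted p below 0.05, 0 were higher and 7 lower, and DESeq2 called the same numbers. Mafk, a small Maf protein that binds DNA with NFE2L1 and NFE2L2, had 37 and 43.8 CPM in the high-fat-diet libraries, against 154 and 94.4 CPM in the control-diet libraries (log2 fold change -1.62, SE 0.26, adjusted p = 0.0223). Irf1, an interferon-induced activator of immunoproteasome genes, had 337 and 254 CPM in the high-fat-diet libraries, against 925 and 649 CPM in the control-diet libraries (log2 fold change -1.41, SE 0.24, adjusted p = 0.0261). In both genes the high-fat-diet libraries were well apart from the control-diet libraries, unlike in the immunoproteasome genes described above. Syvn1, a ubiquitin ligase of the endoplasmic reticulum, had 84.0 and 97.3 CPM in the high-fat-diet libraries, against 205 and 146 CPM in the control-diet libraries (log2 fold change -0.95, SE 0.20, adjusted p = 0.0399). Stat3, a transcription factor downstream of cytokines, had 250 and 270 CPM in the high-fat-diet libraries, against 544 and 400 CPM in the control-diet libraries (log2 fold change -0.86, SE 0.19, adjusted p = 0.0444). All 4 genes fell, and each lost its call when 1 or the other high-fat-diet mouse was left out, with adjusted p-values of 0.0713 to 0.235, Irf1 only without mouse 2 (adjusted p = 0.101). The adjusted p of Stat3 was 0.0576 with control-diet mouse 1 left out. Nfe2l1, the transcription factor that raises proteasome genes when proteasomes are inhibited, was not called and was named for that role: it had 313 and 289 CPM in the high-fat-diet libraries, against 291 and 255 CPM in the control-diet libraries (log2 fold change 0.14, SE 0.16, adjusted p = 0.568).

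Upstream and downstream of the proteasome, 0 genes were called by edgeR, beside 10.5% of all tested genes. Of the 16 genes of ubiquitin and its activation, with a median log2 fold change of 0.10, 2 were higher and 3 lower at an unadjusted p below 0.05, and DESeq2 called 0 higher and 2 lower. Uba1, the main ubiquitin-activating enzyme, was among the genes that DESeq2 called lower, and had 294 and 312 CPM in the high-fat-diet libraries, against 525 and 438 CPM in the control-diet libraries (log2 fold change -0.67, SE 0.16, edgeR adjusted p = 0.0541). Of the 9 genes of the p97 segregase, which pulls ubiquitin-marked proteins out of membranes and complexes, 0 passed an unadjusted p of 0.05 and DESeq2 called 0; Vcp, p97 itself, lay at -0.25 on the log2 scale (SE 0.14, adjusted p = 0.251) and its adaptor Faf1 at -0.33 (SE 0.16, adjusted p = 0.208). Of 12 genes of peptide trimming and transport, 1 was higher and 2 lower at an unadjusted p below 0.05, and DESeq2 called 0 higher and 1 lower, Tap2. Tap2, a chain of the transporter that carries peptides into the endoplasmic reticulum, had 154 and 150 CPM in the high-fat-diet libraries, against 269 and 201 CPM in the control-diet libraries (log2 fold change -0.63, SE 0.18, edgeR adjusted p = 0.0786). For Tap1, the other chain, the log2 fold change was -0.57 (SE 0.20, adjusted p = 0.115).

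**Figure D5:**
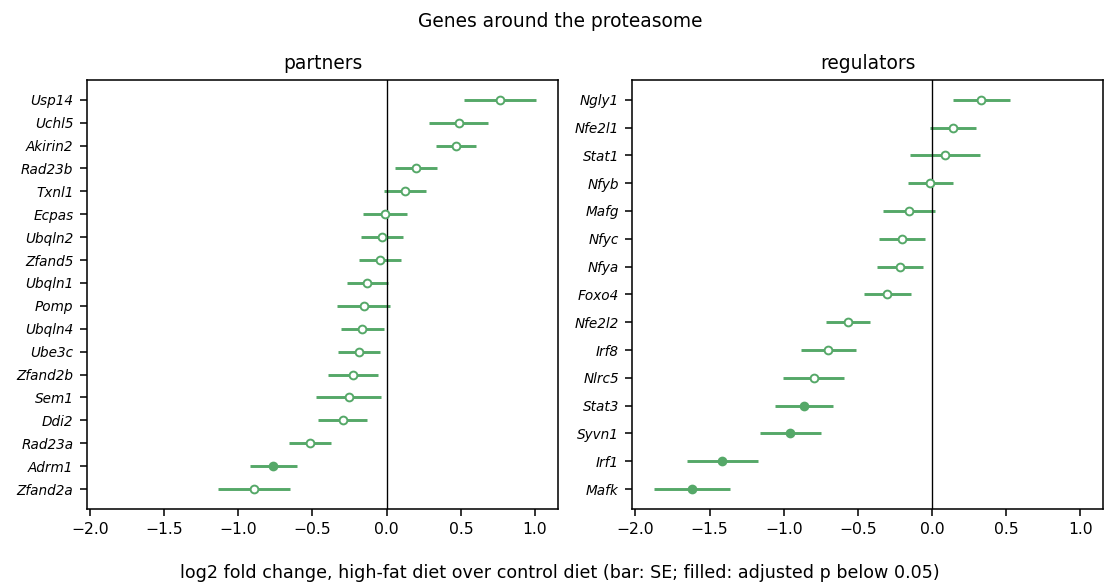
Log2 fold change, high-fat diet over control diet, with its SE, of the partners and regulators, where filled points mark an edgeR adjusted p below 0.05. The filled points are Adrm1, Stat3, Syvn1, Irf1 and Mafk, all left of 0.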

How the data were processed

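PolyA RNA of macrophages sorted from tumours of 2 high-fat-diet and 2 control-diet mice was sequenced from stranded libraries, per the labels' protocols. The authors deposited raw counts, not normalised, for 53379 versioned Ensembl identifiers. Per the submitters' processing notes, the tools were BWA 0.7.12, cutadapt 1.15, DESeq2 1.24.0 and FastQC 0.11.5, and the builds GRCm38 and mm10. What each tool did, which program counted, its strand setting and its rule for reads with several places: not given in the sources used here. BWA in its standard use does not split a read at an intron; whether that bears on the counts of intronless copies was not tested.

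Symbols and positions came from GENCODE mouse release 21 on GRCm38 for 53274 identifiers. Counts were fitted with edgeR 4.0.16 in R 4.3.3: filterByExpr with minimum count 10, minimum total 15, TMM scaling, robust dispersions, glmQLFit and glmQLFTest, and a single diet term. Benjamini-Hochberg adjustment ran over 18422 genes, and a gene was called at an adjusted p below 0.05. CPM are counts relative to the TMM-scaled library size. SE was computed as the absolute log2 fold change over the square root of F. Levels per kb use the annotated principal transcript. Copies were found with BLAST+ 2.17.0. Depth was 34148682 to 37159552 counts per library; reads carry no molecular identifiers.

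The genes and lists were chosen with earlier results of these data known. Any of the 48 genes may be named, with its test for the called and, in each role, up to 4 of smallest p; in the other lists, called genes and up to 2 of smallest p are named. Of 19 listed partners, 18 were found under their names. The values of 1 gene that the rule for the lists would name are not reported here. Alternatives were other scalings (DESeq2 1.42.0 size factors, upper quartile, library totals), other filters, the DESeq2 Wald test, dispersions without robust estimation, mouse number as a block and leaving out each mouse. Adding copies to their gene was chosen after seeing the data. The labels name separate mice, and with 2 per diet the p-values rest on few animals. The fit was tested on simulated data.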

Additional observations from a re-analysis of the deposited data

How the results depend on the processing

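With 0 genes of the 48 called higher and 1 called lower, the counts were the same under DESeq2 size factors, upper-quartile scaling, library totals, no low-count filter, the DESeq2 Wald test, dispersions without robust estimation and summed copies. They became 0 lower with at least 50 counts in 2 libraries, where Psmb11 was not tested, and ranged from 0 to 1 higher and from 0 to 1 lower when single mice were left out. The median log2 fold change of the tested genes was 0.0375 with library totals, beside -0.0332. Over all genes, 480 were called higher and 1457 lower; no filter gave 1552 and 2231, at least 50 counts gave 253 and 869, and the DESeq2 Wald test gave 1080 and 1874. Leaving out single mice gave 71 to 1934 higher and 300 to 2534 lower genes. The labels do not say that equal mouse numbers share a litter or day, and the deviations of same-numbered mice correlated at -0.196 over 10214 genes. With the mouse number as a replicate block, 567 genes were higher and 1481 lower, and of the 48 genes 0 and 1; Adrm1 then had an adjusted p of 0.0518. With the mouse numbers crossed as a block, chosen after seeing the data, 909 genes were higher and 1546 lower.

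Signs changed in genes that were not called. Psma3 was at 0.1573 with copies summed. Leaving out single mice, log2 fold changes ranged from -0.2785 to 0.0932 for Psma5, from -0.3259 to 0.0353 for Psmc4, from -0.0674 to 0.149 for Psmc5, from -0.3767 to 0.0895 for Psme1, from -0.0645 to 0.2081 for Psme4, from -0.0623 to 0.2419 for Psmg4, from -0.3192 to 0.0465 for Psmb8, from -0.0738 to 0.1453 for Psmb9, from -0.1908 to 0.2734 for Itgam and from -0.2196 to 0.5169 for Adgre1. Psmb9 and Itgam were at -0.0057 and -0.0084 with upper-quartile scaling and at -0.0091 and -0.0131 with at least 50 counts. The cause was not tested. Without 1 mouse, the lone mouse of a diet is assumed to vary like the other diet's pair. Stat3 had an adjusted p of 0.0502 with at least 50 counts and 0.0576 without control-diet mouse 1. With 2 mice per diet, differences under the intervals of the 44 abundant genes were not detectable, and Psmb11 and Psma8 are limited by their low counts.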

Other observations

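The promoters of the proteasome genes were searched for motifs on both strands, in 300 bases from 250 before to 50 after the annotated start, for the 40 of the 48 genes with an entry in the RefSeq table of GRCm38.p6. None of the motifs contains another. The core of the interferon-stimulated response element (GAAA, any 2 bases, GAAA) was found in 5 of 40 (12.5%) and in 4.03% of 16504 promoters of all genes. The 5 are Psmb3, Psmd4, Psmd9, Psme1 and Psmg4. TGACNNNGC, the core bound by NFE2L1, was in 6 of 40 (15%) and in 15% of all. CCAAT, the core bound by NF-Y, was in 14 of 40 (35.0%) and in 42.1% of all, and CACGTG, the E-box, was in 4 of 40 and in 9.18% of all. These matches describe letters in the window only.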
